A study of Arabidopsis thaliana with 36 samples.

Results

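Pseudouridine (Ψ) in the rRNA and tRNA of the flower was compared, site by site, with that in the silique, the fruit that forms from the flower of Arabidopsis thaliana and holds the developing seeds. Members were all sites of the deposited rRNA and tRNA tables with a Ψ fraction in both tissues, matched by RNA and position, which gave 534 of 535 listed sites (186 of 186 in rRNA and 348 of 349 in tRNA). Both tissues came from wild-type plants of the Col-0 accession and were collected after flowering, and 9 tissues were profiled in all. Total RNA of each tissue was read by BID-seq in 2 bisulfite-treated and 2 input (untreated) libraries, which the labels number as replicates. The Ψ fraction is the share of molecules that carry Ψ at a site, from 0 to 1, and the tables give 1 value for each site and tissue, which the authors pooled over replicates. No replicate spread or read depth stands behind a fraction, so no difference below could be tested or set against experimental error. A difference of at least 0.1 was used as a fixed size, and signed differences are silique minus flower. Beside each fraction the tables say whether the site passed the authors' p-value filter in that tissue. No expression values were used, so the tissue names could not be checked with marker genes.

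Ψ is an isomer of uridine made after transcription. In nuclear rRNA, H/ACA small nucleolar RNAs guide a synthase to each site by base pairing, whereas stand-alone synthases modify the rRNA of bacteria and are thought to do so in organelles. In tRNA, stand-alone synthases act at fixed positions of the cloverleaf and are best known from yeast and bacteria. Whole siliques and whole flowers are mixtures of organs, and in bulk RNA a different mix of cells and a different level within cells cannot be told apart.

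Sequences around sites with large differences are shown 5′ to 3′ as DNA, read from the RefSeq TAIR10.1 assembly. Helix 69, a hairpin of the large-subunit rRNA that touches the tRNAs at the interface of the subunits, is shown first because it carries listed sites in the rRNA of 3 genomes, 3 of them at letters that all share. In its copies every listed Ψ site is in capitals, and in the later sequences only the site that names the line is, although other listed sites can lie in the same stretch. The nuclear copy lies at chr2:8379-8408 (plus strand), the chloroplast copy at Pltd:106607-106636 (plus strand) and the mitochondrial copy at MT:141724-141753 (minus strand, an approximate place).
Nu-25S helix 69: cggtgggagTaacTaTgacTcTcttaaggt
Pt-23S helix 69: cggcggccgTaacTaTaacggtcctaaggt
Mt-26S helix 69: cggcggcagTaacTcTaacTgtcctaaggt
The next windows hold the nuclear rRNA sites with the largest difference in each direction, at chr2:7372-7392 in the 25S rRNA and at chr2:5062-5082 in the 18S rRNA (gene AT2G01010).
Nu-25S 1249: aggacggtggTcatggaagtc
Nu-18S 1367: cgtggaggcaTcccttcacgg
The chloroplast windows show 2 sites with higher fractions in silique, the last base of the 23S rRNA (ArthCr087, Pltd:107490-107510) and a base inside the 16S rRNA (ArthCr086, Pltd:102090-102110).
Pt-23S 2810: agtgctctccTattccgactt
Pt-16S 1089: accgttgagtTtggaaccctg
The tRNA stretches show sites at position 27 of the standard numbering used below, which differed in both directions. They also show 3 tRNAs with large differences among sites passed in flower or silique. The lines themselves give the position counted along each tRNA, so standard position 27 reads 28 in Ile and 26 in Trp. The Ile window is shared by 17 genes (the first is AT1G06480, chr1:1978084-1978157) and the Trp window by 13 (the first is AT1G11640, chr1:3914622-3914700). The last 3 are whole tRNAs, from the genes AT1G17570 (chr1:6038757-6038838), ArthCt094 (Pltd:27373-27443) and ArthCt096 (Pltd:30323-30406).
Ile-AAT-1 and Ile-AAT-2 position 28: ggttagagcgTcgtgctaata
Trp-CCA-1 and Trp-CCA-2 position 26: tggtagcgcgTctgactccag
Ser-AGA-1-b position 79: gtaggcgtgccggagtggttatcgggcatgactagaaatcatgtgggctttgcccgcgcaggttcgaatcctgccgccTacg
Cys-GCA-7-PT position 32: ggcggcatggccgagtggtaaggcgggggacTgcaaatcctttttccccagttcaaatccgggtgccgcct
Tyr-GTA-8-PT position 40: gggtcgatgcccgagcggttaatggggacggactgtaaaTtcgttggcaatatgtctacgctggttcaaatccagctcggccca

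Most sites had closely similar fractions in flower and silique. In rRNA, 10 of 186 sites (5.38%) were at least 0.1 higher in silique and 12 (6.45%) at least 0.1 higher in flower. In tRNA, 19 of 348 sites (5.46%) were at least 0.1 higher in silique and 35 (10.1%) at least 0.1 higher in flower. The median difference was -0.0075 in rRNA, with quartiles of -0.0328 and 0.006, and 0 in tRNA, with quartiles of -0.0372 and 0.0152. Small differences in rRNA ran mostly one way, since 117 sites were lower in silique, 57 were higher and 12 were equal. In tRNA the split was nearly even, with 169 sites lower in silique, 145 higher and 34 equal.

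**Figure D1:**
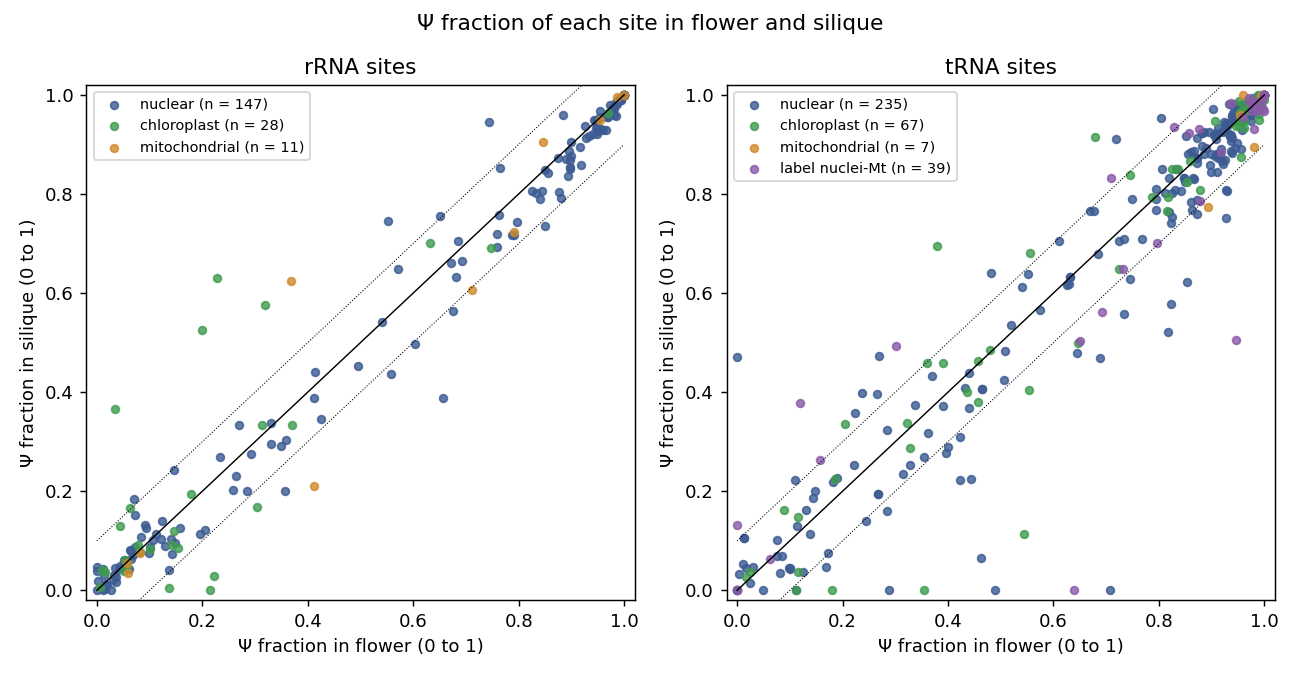
Ψ fraction of each of the 186 rRNA and 348 tRNA sites in flower (horizontal axis, 0 to 1) and silique (vertical axis, 0 to 1), each point 1 site and colored by genome; the solid line marks equal values and the dotted lines a difference of 0.1. Sites with a mean of at least 0.9 stay within the dotted lines in both panels.

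The size of the difference varied with the level of the site. None of the 50 rRNA and 156 tRNA sites with a mean of at least 0.9 over both tissues differed by 0.1, and their differences ranged from -0.036 to 0.076 and from -0.087 to 0.069. A fraction has little room to vary near 1. Of the 42 rRNA sites between 0.5 and 0.9, 33 were lower in silique and 8 higher, with a median difference of -0.035. The tRNA sites between 0.1 and 0.5 differed by at least 0.1 most often of the 4 level classes, at 26 of 63 sites (41.3%).

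Among the 36 pairs of tissues, flower and silique stood among the more similar. The number of rRNA sites past 0.1 (22, 11.8%) and of tRNA sites past 0.1 (54, 15.5%) each ranked 5th from the lowest. Rosetta leaf and cauline leaf differed at 9 rRNA and 39 tRNA sites, the fewest, whereas root and seed differed at 75 rRNA sites and shoot and root at 244 tRNA sites, the most. The median absolute difference between flower and silique was 0.022 in rRNA and 0.025 in tRNA, which ranked 9th in both. The pairs share tissues, so their values are not independent.

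**Figure D2:**
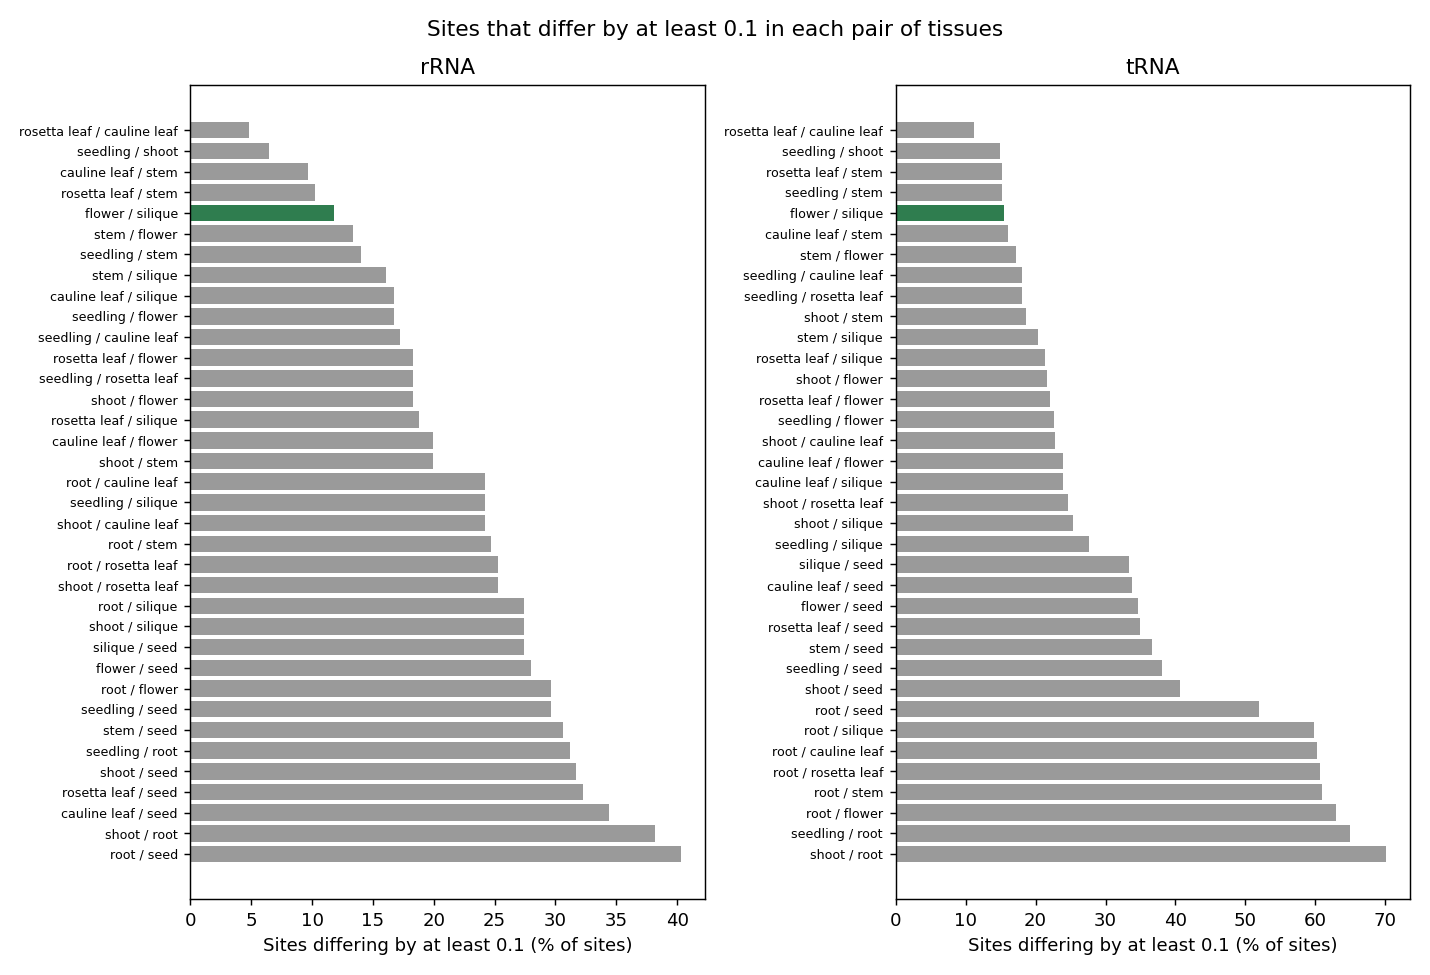
Share of sites (%) whose Ψ fractions differ by at least 0.1 in each of the 36 pairs of tissues, for rRNA (left) and tRNA (right), with flower and silique in green. The green bars stand at 11.8% and 15.5%, the fifth shortest in each panel.

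The nuclear rRNA held 147 sites, and 96 of them were lower in silique, 40 higher and 11 equal. Only 10 differed by at least 0.1, 4 higher in silique and 6 higher in flower. The lean toward flower was found in the 25S rRNA of the large subunit, with 52 of 74 sites lower in silique, and in the 18S rRNA of the small subunit, with 41 of 66. Among the 37 nuclear sites with a mean between 0.5 and 0.9, 30 were lower in silique and 6 higher. Among the 106 nuclear sites that passed in both tissues, 74 were lower in silique.

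The largest nuclear difference toward flower was at Nu-25S 1249, with 0.656 in flower and 0.389 in silique. The other 7 tissues lay between 0.68 in cauline leaf and 0.984 in seedling, with a median of 0.947. Flower and silique were therefore the lowest 2 of the 9 tissues, and the site passed in all 9. The next were Nu-18S 913 (0.356 and 0.2), Nu-18S 950 (0.558 and 0.436), Nu-25S 1481 (0.85 and 0.736), Nu-5.8S 22 (0.675 and 0.563) and Nu-25S 2135 (0.604 and 0.498), flower first. All of these passed in both tissues. Silique had the lowest value of all 9 tissues at Nu-18S 913, where the other 7 ranged from 0.236 in cauline leaf to 0.472 in stem.

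The largest nuclear difference toward silique was at Nu-18S 1367, with 0.743 in flower and 0.946 in silique. Seed was higher still (0.986), and the other 6 tissues lay below flower, down to 0.132 in rosetta leaf. The site passed in flower, silique and seed and in none of those 6. The next largest differences toward silique among nuclear sites passed in both tissues were at Nu-25S 1819 (0.651 and 0.756), Nu-18S 1372 (0.146 and 0.242), Nu-18S 723 (0.765 and 0.853), Nu-25S 2255 (0.572 and 0.649) and Nu-18S 74 (0.884 and 0.96). Of these only Nu-25S 1819 reached 0.1. A base 7 bases upstream of the 18S rRNA, in the spacer of the precursor, had 0.552 in flower and 0.745 in silique. It passed in silique and not in flower, and it also passed in seed (0.667). Nu-18S 136 went from 0.07 to 0.184 and passed in neither.

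**Figure D3:**
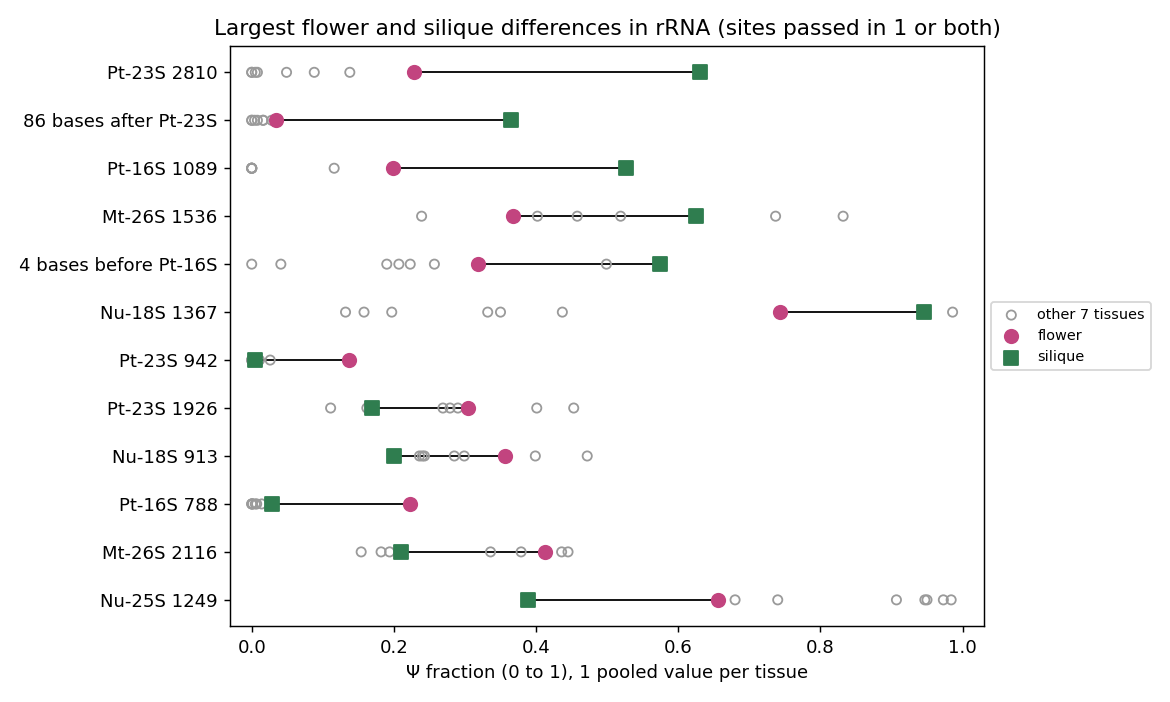
Ψ fraction (horizontal axis, 0 to 1) of the rRNA sites with the 6 largest differences in each direction among sites passed in flower or silique, with flower as circles, silique as squares and the other 7 tissues as open circles, 1 pooled value each. At Nu-25S 1249 flower and silique lie below the other 7 tissues, and at Pt-23S 2810 and the base 86 bases after the 23S rRNA silique (0.631 and 0.365) lies above every other tissue.

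The chloroplast rRNA locus held 28 sites and had the highest share past 0.1 of the 3 genomes (9 sites, 32.1%, against 27.3% in the mitochondrial and 6.8% in the nuclear rRNA). Its median level was low, 0.1445 in flower and 0.106 in silique, and only 9 of its sites passed in both tissues. The 5 sites higher in silique lay mostly at rRNA ends or in spacers. The last base of the 23S rRNA had 0.228 in flower and 0.631 in silique, and the other 7 tissues reached at most 0.138, in root. A spacer base 86 bases beyond it had 0.034 and 0.365, with at most 0.028 elsewhere. A base 4 bases before the 16S rRNA had 0.318 and 0.575, and Pt-5S 4 had 0.062 and 0.167. Each of these 4 passed in silique and not in flower. Of the 6 chloroplast sites in a spacer or within 10 bases of an RNA end, 4 were at least 0.1 higher in silique. None was lower by 0.1, and Pt-5S 1 differed by -0.037. None of the 6 passed in both tissues, and sites that passed through silique favor this lean. This class of sites was not set in advance. The other 22 split into 1 higher and 4 lower by at least 0.1. That 1 site, Pt-16S 1089, had 0.199 in flower and 0.526 in silique, passed in both tissues, and was listed at 0 in most others.

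The chloroplast sites higher in flower lay inside the rRNAs. Pt-16S 788 had 0.223 in flower and 0.028 in silique, Pt-23S 942 had 0.137 and 0.004, and Pt-23S 948 had 0.214 and was listed at 0 in silique. In the first of these the other 7 tissues reached at most 0.014, and in the next at most 0.026. Pt-16S 788 and Pt-23S 942 passed in flower alone, which favors a value that is high in flower only, and Pt-23S 948 passed in neither. The organelle read depth in each tissue is unknown, and its part in these differences was not tested.

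Of the 11 sites in the mitochondrial 26S rRNA, 3 differed by at least 0.1. Mt-26S 2116 had 0.412 in flower and 0.21 in silique and passed in both, within a spread of 0.154 to 0.445 over the other tissues. The other pair lay in helix 69, where 12 sites were listed over 3 genomes. The loop is modified in bacteria by the synthase RluD. The first of these letters was lower in silique in the chloroplast (Pt-23S 1926, 0.304 and 0.169) and higher in silique in the mitochondrion (Mt-26S 1536, 0.368 and 0.625) and the nuclear rRNA (Nu-25S 2255, 0.572 and 0.649). At the second letter silique was lower in all 3, by -0.07 at Nu-25S 2259, -0.104 at Mt-26S 1540 and -0.056 at Pt-23S 1930. At the third, the difference was 0 at Nu-25S 2261, 0.057 at Mt-26S 1542 and 0.069 at Pt-23S 1932. Within each genome, sites of the same loop thus differed in opposite directions. The nuclear and mitochondrial sites on the 3′ side were lower in silique (Nu-25S 2265, -0.08, Nu-25S 2267, -0.054, and Mt-26S 1546, -0.068). Mt-26S 1536 passed in silique and not in flower.

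The tRNA sites were grouped by standard position, the numbering in which the anticodon takes positions 34 to 36, which could be given to 296 sites through matching annotated genes. The anticodon arm held most of the large differences. For tRNAs other than Leu, Ser and Tyr, the arms were taken as windows of positions counted along each tRNA. In the anticodon arm 33 of 117 sites (28.2%) differed by at least 0.1, 11 higher in silique and 22 higher in flower. In the T loop window 2 of 94 (2.13%) did, both higher in flower. The T loop was near saturation, with medians of 0.958 and 0.963, and the anticodon arm was not, with 0.611 and 0.521, flower first.

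Position 55 in the T loop, the site of Pus4 in yeast and TruB in bacteria, was listed at 115 sites with medians of 0.963 in flower and 0.968 in silique. Silique was lower at 42 of them and higher at 58. The 2 that differed by at least 0.1 were Ala-AGC-1 (0.644 and 0.478) and Asn-GTT-5 (0.872 and 0.759), of which the second passed in neither tissue. Among the 27 chloroplast tRNAs with this site the median difference was 0.

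Position 13 in the D arm, made by Pus7 in yeast, leaned one way in nuclear tRNAs. Of 21 nuclear sites, 19 were lower in silique, 1 was higher (His-GTG-2) and 1 was equal (His-GTG-1), with medians of 0.919 in flower and 0.88 in silique. The sizes were small, with a median difference of -0.031, and 7 of the 21 belonged to Pro tRNAs, of which Pro-AGG-1 and Pro-TGG-1 carried identical values. With 1 value per anticodon, 11 of 12 anticodons were lower in silique, and among sites that passed in both tissues 17 of 19 were. Over the other tissues, the median of these sites ran from 0.814 in root to 0.969 in shoot, so the 2 values lay within the range of the tissues.

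**Figure D4:**
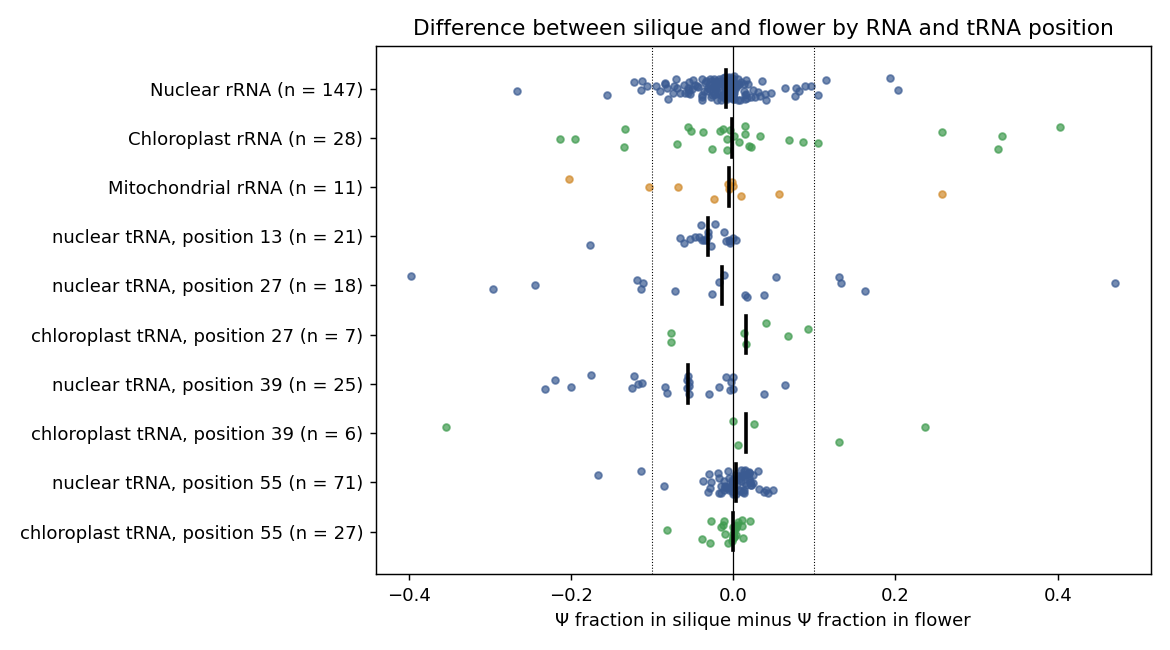
Silique minus flower Ψ fraction (horizontal axis) for every site (points) of the nuclear, chloroplast and mitochondrial rRNA and of 4 standard tRNA positions, with thick lines at the medians and dotted lines at 0.1 in both directions. Nuclear position 39 has its median at -0.056 and most points left of 0, whereas position 55 is packed near 0.

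Positions 38 and 39, in the 3′ side of the anticodon arm, are made by Deg1 (Pus3) in yeast. At position 39, 21 of 25 nuclear sites were lower in silique, 2 higher and 2 equal, with medians of 0.745 in flower and 0.628 in silique. No nuclear site at position 39 was at least 0.1 higher in silique and 8 were at least 0.1 higher in flower. The direction held in 16 of the 18 sites that passed in both tissues and in 12 of 14 anticodons taken as 1 value each. At 25 sites the median ran over the tissues from 0.864 in shoot to 0.459 in seed, and silique was the second lowest.

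The largest position 39 differences of nuclear tRNAs were in Ser and Cys tRNAs. Ser-CGA-1 had 0.854 in flower and 0.622 in silique, Ser-TGA-1 had 0.688 and 0.469, Cys-GCA-4 had 0.422 and 0.222, and Cys-GCA-2 had 0.733 and 0.558. Smaller ones included Ser-AGA-1-b (0.93 and 0.805) and Ser-CGA-2 (0.745 and 0.628). Of these 6, Cys-GCA-4 passed in flower and not in silique, and the other 5 passed in both tissues. The rest of the 8 sites at least 0.1 higher in flower are not named here and did not pass in both. The T loop sites of the same 4 Ser tRNAs lay between 0.942 and 0.974 in both tissues. Cys-GCA-5 differed from the other Cys tRNAs in direction, with 0.337 and 0.375. At position 38, Ala-AGC-1 had 0.928 and 0.807, and the other 3 Ala names were also lower in silique, by -0.026 to -0.094. Of these, Ala-TGC-1 and Ala-TGC-2 match the same 10 genes, and whether they are separate tRNAs is unknown. Over all 10 sites at position 38, 5 were lower in silique and 5 higher, and over the 8 nuclear ones 5 were lower and 3 higher.

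Few chloroplast tRNAs had position 39 listed. Of 6 sites, 4 were higher in silique, led by Tyr-GTA-8 (0.679 and 0.915), 1 was equal, and Thr-TGT-2 was listed at 0 in silique against 0.354 in flower. Tyr-GTA-8 passed in silique and not in flower, and Thr-TGT-2 passed in neither. The difference between nuclear and chloroplast tRNAs was not tested.

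Positions 27 and 28, the first pairs of the anticodon stem and sites of Pus1 in yeast, differed in both directions. At position 27, 6 of 34 sites were at least 0.1 higher in silique and 7 at least 0.1 higher in flower. Trp-CCA-1 had 0.822 in flower and 0.578 in silique, and Trp-CCA-2 had 0.817 and 0.521. The Trp names match the same 13 genes, but the number in a name was not used in matching. Whether they are separate tRNAs is unknown. Thr-CGT-1 (0.4 and 0.289) and Thr-CGT-2 (0.423 and 0.31) were also lower in silique. The gene matched by Thr-CGT-2 is among the 5 matched by Thr-CGT-1, so it is also unknown whether these 2 names are separate. In the other direction stood Val-AAC-1 (0.237 and 0.399) and Phe-GAA-1 (0.224 and 0.357), both passed in both tissues. Ile-AAT-2 had 0.463 in flower and 0.066 in silique, while Ile-AAT-1 had 0.266 and 0.397. Ile-AAT-2 passed in flower and not in silique, and Ile-AAT-1 did not pass in both tissues. These Ile names match the same 17 genes, which share the window shown above. Differences of opposite sign were thus listed for the same stretch, but whether the names are separate tRNAs is unknown. The largest difference toward silique at position 27, in Arg-TCG-1 (listed at 0 in flower and 0.471 in silique), passed in neither tissue.

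At position 28, 4 of 12 sites were at least 0.1 higher in flower and none in silique. They were His-GTG-3 of the chloroplast (0.553 and 0.405) and of the mitochondrion (0.893 and 0.773), and Asn-GTT-4 under its chloroplast name (0.647 and 0.5) and its nuclei-Mt name (0.65 and 0.504). The annotated genes of the last pair are nearly identical in sequence, so their values may come from shared reads, which was not tested. Position 31, made by Pus6 in yeast, was listed in 5 tRNAs, all organellar or nuclei-Mt, and all 5 were lower in silique, with a median difference of -0.075.

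**Figure D5:**
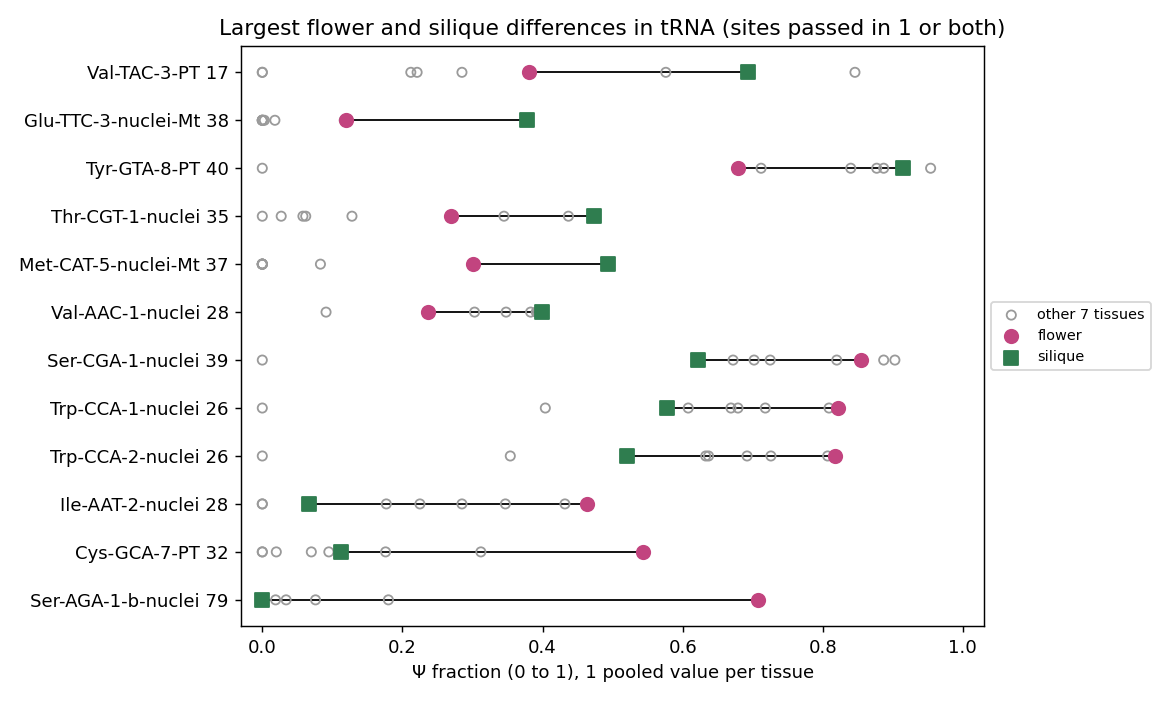
Ψ fraction (horizontal axis, 0 to 1) of the tRNA sites with the 6 largest differences in each direction among sites passed in flower or silique, drawn as for the rRNA sites, with names that give amino acid, anticodon, number, genome and position along the tRNA. Ser-AGA-1-b 79 has 0.707 in flower and is listed at 0 in silique, and silique stands above all others at Glu-TTC-3-nuclei-Mt 38.

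The largest tRNA difference lay in the acceptor stem of Ser-AGA-1-b, at position 79 along the tRNA, which had 0.707 in flower and was listed at 0 in silique. The other 7 tissues reached at most 0.18, in seed, and the site passed in flower alone. The next 3 toward flower passed in neither tissue, namely Ser-GGA-1 with the nuclei-Mt name at position 39 (0.638 and listed at 0), Arg-CCG-3 at position 41 (0.49 and listed at 0) and Met-CAT-3 with the nuclei-Mt name at position 33 (0.947 and 0.505). Among sites passed in flower or silique, several of the next largest differences carried organellar names. Cys-GCA-7 of the chloroplast had 0.544 in flower and 0.113 in silique at the U before its anticodon, where the other tissues reached 0.312. Val-TAC-3 of the chloroplast had 0.38 and 0.694 at position 17 in the D loop, and passed in silique and shoot alone. Glu-TTC-3 with the nuclei-Mt name had 0.119 and 0.378 at position 38, and Met-CAT-5 with that name had 0.301 and 0.493 at the third base of its anticodon. Both passed in silique alone, and no other tissue exceeded 0.117 and 0.083. Thr-CGT-1 had 0.27 and 0.473, also at the third base of the anticodon, and passed in silique and root.

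By genome, 9 of 235 nuclear tRNA sites were at least 0.1 higher in silique and 24 at least 0.1 higher in flower. Nuclear Ser tRNAs contributed 6 of the 24 from 26 sites, with none higher in silique. The chloroplast tRNAs split into 4 and 6 of 67, the nuclei-Mt names into 6 and 4 of 39, and the mitochondrial names into 0 and 1 of 7.

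Passing the authors' filter also differed between the tissues. In rRNA, 123 sites passed in both, 7 in flower alone, 9 in silique alone and 47 in neither. In tRNA, 263 passed in both, 15 in flower alone, 24 in silique alone and 46 in neither. Counting a site as present from a fraction of 0.1 upward, without the filter, turned the order of the tissues, with 11 rRNA sites in flower alone and 8 in silique alone, and 15 and 6 in tRNA. The sites past 0.1 rested on unequal evidence. Of the 10 rRNA sites higher in silique, 3 passed in both tissues, 6 in 1 and 1 in neither, against 9, 2 and 1 of the 12 higher in flower. Of the 35 tRNA sites higher in flower, 16 passed in both tissues, 8 in 1 and 11 in neither, and of the 19 higher in silique, 5, 11 and 3 did. Silique alone was the highest of the 9 tissues at 7 of the 10 rRNA sites higher in silique, and flower alone at 3 of the 12 higher in flower. Seed lay above silique at 2 of those 10 sites and at 9 of the 12 higher in flower, a split that the choice of sites by their silique value favors.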

How the data were processed

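Total RNA BID-seq of 9 Arabidopsis tissues (36 libraries) was used, and 8 libraries belonged to flower and silique. Bisulfite adds to Ψ, and the reverse transcriptase then skips the base, so Ψ is read as a deletion. The authors aligned single reads to TAIR10, summed gapped and ungapped reads of both replicates, and converted the gap ratio through a calibration curve to the deposited fraction. They also deposited a pass flag (TRUE or FALSE) from a p-value filter whose thresholds are not given in the sources used here. Depth is unknown, so no interval was computed, and a value of 0 can be a failed estimate. Values of 0 numbered 3 in each tissue in rRNA, and 6 in flower and 13 in silique in tRNA. No background was measured from the untreated libraries here.

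Differences, medians and counts were computed with Python 3.11.15, numpy 2.4.6, pandas 2.3.3 and Biopython 1.88, and the counting was tested on simulated data. No test was run, because each tissue has 1 pooled value. Named sites were the 6 largest differences per direction and table among sites passed in flower or silique, the helix 69 sites, and tRNA groups by position. Other sites named were chosen after their values were seen, and the members and lists were chosen with earlier results of these data known. The nuclear rRNA sites, and the chloroplast sites after the 16S rRNA, were placed on TAIR10.1 by the study's numbering. The 5 sites in or just before the chloroplast 16S rRNA were placed by assuming 50 bases before the rRNA in the authors' reference. All 147 nuclear and 28 chloroplast sites fell on a T. For mitochondrial sites, the shift between table and assembly was chosen from 3001 for the most sites on a T. It gave 10 of 11, against 8 for the next best, so this count does not check the mitochondrial places. The mitochondrial assembly may differ from the authors', so those places are approximate. rRNA genes have further copies, which reads cannot tell apart. Helix 69 was found by the letters TAACTNT on the rRNA strand, which occur 1 time in Nu-25S and Pt-23S and 2 times in Mt-26S. Of 144 tRNA names, 138 matched at least 1 of 684 annotated genes. A match needed the amino acid, anticodon and genome of the name and a T at every listed position. The number in a name was not used, so names can share genes without being the same tRNA. Names ending in nuclei, PT or MT were read as nuclear, chloroplast or mitochondrial, and the meaning of nuclei-Mt was not given. In 16 tRNA rows the position and all values equalled those of another row. In tRNA, the anticodon arm was taken as positions 26 to 44 and the T loop as 54 to 60, counted along each tRNA and not in the standard numbering. A T loop site at position 53 of a shorter tRNA, as in Gly-CCC-1, therefore fell outside the T loop window.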

Additional observations from a re-analysis of the deposited data

How the results depend on the processing

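Alternatives changed the size that counts, the sites entering, the treatment of 0 values and the summary. With 0.05 in place of 0.1, the rRNA counts became 19 higher in silique and 36 higher in flower, and the tRNA counts 36 and 76. With 0.2 they became 6 and 3 in rRNA and 5 and 14 in tRNA. Over sites passed in both tissues, 3 rRNA sites were higher in silique, and 5 and 16 tRNA sites were higher in silique and flower. With a fraction of at least 0.1 in place of the filter, 11 rRNA sites were detected in flower alone and 8 in silique alone, and 15 and 6 tRNA sites, so more sites were then detected in flower alone in both tables, whereas the filter gave more in silique alone. The mean tRNA difference was -0.017. The mean absolute difference was 0.0451 in rRNA and 0.0554 in tRNA, and over sites passed in all 9 tissues the median was 0.014 in tRNA. The other 28 alternative values stayed within 1.5 times the count or 0.01 of the median. Among the 36 tissue pairs, the rank of the rRNA median moved from 9 to between 4 and 7, and that of tRNA to between 5 and 9. No paired analysis was possible because the deposited fractions are pooled over the numbered replicates. For the same reason no replicate could be left out. Depth is unknown, so the precision of low and 0 values could not be given.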
